A study of Mus musculus with 4 samples.

Results

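The natriuretic peptide system was described here in the E10.5 mouse heart through 6 genes, taken by symbol from the 32285 genes of the deposited count tables: the peptide genes Nppa and Nppb, the protease gene Corin, and the receptor genes Npr1, Npr2 and Npr3. Hearts of wild-type (Wt) embryos and of embryos homozygous for the Cyp51 I383V allele (Ho) were dissociated for single-cell RNA sequencing, with 2 libraries per genotype, named Wt1, Wt2, Ho1 and Ho2. The knock-in allele, made with CRISPR/Cas9 on the C57BL/6J background, changes Cyp51, an enzyme of cholesterol synthesis, in all cells of the embryo. Red blood cells were lysed in every sample, and the number of embryos pooled in a library is not given in the sources used here. In this droplet assay each captured mRNA molecule carries a unique molecular identifier (UMI), so that a value is a count of molecules near the 3′ end of the transcript and does not scale with gene length. The comparisons asked in which cells of the heart each gene was expressed, and whether Ho differed from Wt there.

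Natriuretic peptides are hormones of heart muscle that act through the second messenger cGMP. Atrial natriuretic peptide (from Nppa) and B-type natriuretic peptide (from Nppb) are made as precursors, and the membrane protease Corin cuts the atrial precursor. Npr1 is the guanylyl cyclase receptor for both peptides, Npr2 the cyclase receptor for C-type natriuretic peptide, and Npr3 a receptor without a cyclase domain that removes the peptides from the medium. In the embryonic heart Nppa is a textbook marker of working chamber myocardium, above all of the trabeculae, the muscular ridges that line the ventricle.

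Cells were assigned to 5 gates by marker genes that do not include the 6 genes: ventricular (Tnnt2 and Myl2), atrial (Tnnt2 and Stard10), endocardial (Cdh5), cushion (Hapln1) and pharyngeal (Crabp1). Sets of 4 values are given in the order Wt1, Wt2, Ho1, Ho2. The tables held 109893733, 117034633, 127018819 and 107377100 UMIs, and 8908, 7154, 6980 and 6126 cells of them were used. The ventricular gate held 759, 1400, 2001 and 1070 cells, and the endocardial gate 1090, 1614, 1675 and 957 cells. There were 441, 620, 708 and 573 atrial cells and 786, 991, 1132 and 691 cushion cells. Markers outside the gates' definition followed the names: Myl3 stood at a mean of 6310 counts per 1000000 UMIs (CPM) in ventricular against 34.1 in endocardial cells, Vsnl1 at 258 CPM in atrial against 9.32 in ventricular cells, Emcn at 324 CPM in endocardial cells, and Twist1 at 529 CPM in cushion cells. The pharyngeal gate carried Foxf1 at 46.2 CPM, a gene of splanchnic mesoderm beside the heart.

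Some libraries stood apart before any of the 6 genes was compared. Wt1 had the lowest median depth, 10564 UMIs per cell against 14216 in Wt2, 15654 in Ho1 and 15820 in Ho2, and 2736 of its cells fell into the pharyngeal gate, against 555 in Wt2, 43 in Ho1 and 445 in Ho2. Ho1 held 28865 UMIs of Xist and 0 of the Y-linked gene Ddx3y, while the other 3 libraries held at most 5 UMIs of Xist, so that Ho1 came from female and the other libraries from male embryos. Ho1 also held 99474 UMIs of the embryonic globin gene Hba-x, against 12714 in Wt1, 21579 in Wt2 and 26962 in Ho2. Sex and globin therefore cannot be told apart from the library in Ho1, and differences between the genotypes are also given without single libraries. Pairs of libraries shared between 9 and 28 cell barcodes.

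Nppa and Nppb, the peptide genes, lay side by side in the genome and were expressed in the same gates. On GRCm38 (GENCODE M21), Nppb (ENSMUSG00000029019) spans chr4:147985788-147987205 and Nppa (ENSMUSG00000041616) chr4:148000722-148002079, both on the plus strand, with 13516 bases and no other annotated gene between them. Their upstream sequence is shown because the 2 genes had nearly the same profile over gates and libraries. The Nppa window is the 250 bases before its start, chr4:148000472-148000721, and the Nppb window a stretch of 30 bases, chr4:147985799-147985828, both from RefSeq on GRCm38.p6 and read on the plus strand. RefSeq starts Nppb later than GENCODE, so that the Nppb stretch lies inside the span given above. Capitals mark matches to motifs of cardiac factors: GATAA (GATA factors), AAGTG (NKX2-5) and GGTGTGA (T-box factors), on either strand.
Nppa promoter: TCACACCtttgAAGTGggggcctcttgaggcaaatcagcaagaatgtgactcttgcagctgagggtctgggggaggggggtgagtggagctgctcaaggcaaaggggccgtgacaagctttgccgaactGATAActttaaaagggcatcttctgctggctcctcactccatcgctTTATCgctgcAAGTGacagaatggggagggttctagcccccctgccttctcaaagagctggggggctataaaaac
Nppb promoter: tgcagctGATAAatcagaGATAAccccacc
Positions are counted back from the start site. Nppa held GATAA at -121 and its reverse complement TTATC at -75, AAGTG at -239 and -65, and TCACACC, the reverse complement of GGTGTGA, at -250. Nppb held GATAA at -94 and at -83. No matches overlapped each other. Of 32851 mouse promoters of 300 bases, 25.4% held GATAA on either strand, 46.4% AAGTG and 3.98% GGTGTGA. The motifs CACGTG, present in 7.15% of promoters, and CCATATTA, present in 0.323%, had no match in either peptide gene, and the promoters of Npr1, Npr2, Npr3 and Corin held none of these 5 motifs. A match is a string of letters and does not show that a factor binds there.

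Nppa was a transcript of both heart chambers. In ventricular cells it reached 1516 and 3921 CPM in the Wt libraries and 3041 and 2367 CPM in the Ho libraries, a mean of 2711 CPM ± 1020 (SD, n = 4 libraries). In atrial cells the values were 1662, 2833, 2111 and 2201 CPM, a mean of 2202 CPM ± 483 (SD, n = 4). The chambers overlapped, and Wt1 was the lowest and Wt2 the highest library in both. In bulk sums over a gate, fewer cells that express a gene and less RNA per cell cannot be told apart, so counts per cell are given further on. The chambers took 68.8% (ventricular) and 26.8% (atrial) of all Nppa UMIs, with 21.4% and 10.9% of all UMIs. Outside them the level was 7.11, 28.2, 40.0 and 18.7 CPM in endocardial cells, and between 7.48 and 40.9 CPM in cushion cells.

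**Figure D1:**
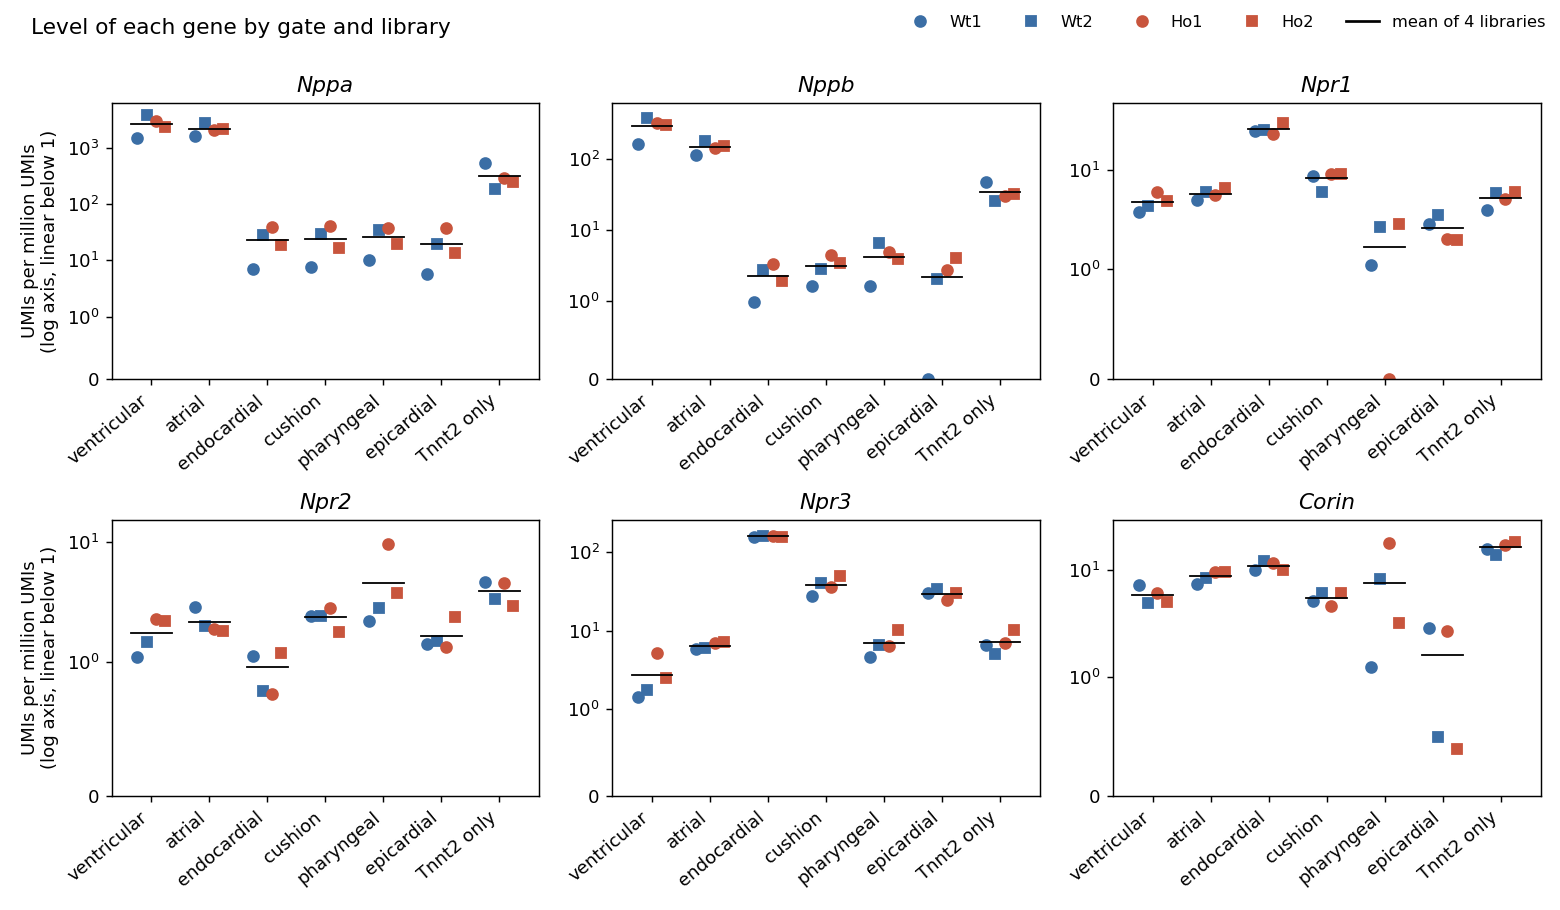
Level of each of the 6 genes (CPM of all UMIs of the cells, on an axis that is linear near 0 and logarithmic above). Shown are the 5 gates, epicardial cells, and cells with Tnnt2 but neither Myl2 nor Stard10 (Tnnt2 only). There is 1 point per library, coloured by genotype, and a line at the mean of the 4 libraries. Nppa and Nppb are highest in the ventricular and atrial gates and Npr1 and Npr3 in the endocardial gate. Npr2 is at most 9.61 CPM, in pharyngeal cells of Ho1.

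Nppb followed the same pattern at a lower level. Ventricular cells held 163 and 388 CPM in Wt and 322 and 303 CPM in Ho, a mean of 294 CPM ± 94.9 (SD, n = 4), and atrial cells 116, 180, 143 and 153 CPM, a mean of 148 CPM ± 26.4 (SD, n = 4). In each library the ventricular value was the higher one, though the gates overlapped because ventricular Wt1 lay below atrial Wt2. Endocardial cells held between 0.99 and 3.34 CPM. Ventricular cells gave 76.0% of all Nppb UMIs, atrial cells 18.4% and endocardial cells 0.577%.

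Chambers were compared within libraries by edgeR's quasi-likelihood test, with the library as a term and Benjamini-Hochberg adjustment over 14516 genes. Between ventricular and atrial cells 28.2% of all genes were called, and 2 of the 6 were among them. Nppb was higher in ventricular cells by 1.02 on the log2 scale (SE 0.11, adjusted p = 1.3e-06, n = 4 libraries, edgeR), whereas Nppa differed by 0.28 (SE 0.20, adjusted p = 0.316). With each cell thinned to 2000 UMIs the difference of Nppa was 0.50 and was called (adjusted p = 0.0045). The ratio of Nppa to Nppb UMIs was 9.31, 10.1, 9.45 and 7.81 in ventricular cells, and 14.4, 15.8, 14.7 and 14.4 in atrial cells. Every atrial ratio lay above every ventricular one. Npr3, the second gene called, was lower in ventricular than in atrial cells, with a log2 difference of -1.04 (SE 0.27, adjusted p = 0.0066), with levels of 1.43 to 7.23 CPM over both gates. This call was lost in thinned cells (-0.98, adjusted p = 0.147, edgeR) and without Wt2 (-0.88, adjusted p = 0.061, edgeR), and the difference was -1.63 without Ho1.

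Most UMIs of the peptides lay in a minority of muscle cells. With each cell thinned to 2000 UMIs, 28.8% of ventricular cells of Wt1 had a UMI of Nppa (exact 95% interval 25.2 to 32.6), against 49.6% of Wt2 (46.7 to 52.5), 51.8% of Ho1 (49.5 to 54.1) and 40.5% of Ho2 (37.5 to 43.7). These intervals cover counting error only. The 10% of ventricular cells richest in Nppa held 85.9%, 70.7%, 71.1% and 80.8% of its UMIs, and the richest single cells held 94, 125, 161 and 142 of 2000 UMIs. Median ventricular cells held 0 or 1. Atrial cells had a UMI of Nppa in 36.4%, 53.0%, 46.9% and 44.4% of cells, and the richest 10% held between 53.9% and 73.0% of the UMIs. For comparison, endocardial cells had a UMI of Nppa in 1.51%, 6.45%, 6.24% and 2.44% of cells. Their median depths before thinning were 13036, 15680, 16164 and 16432 UMIs, against 14970, 20569, 19246 and 20796 in ventricular cells. A UMI of Nppb was found in 16.2%, 25.3%, 26.3% and 23.3% of ventricular cells and in 10.4%, 17.7%, 16.2% and 15.3% of atrial cells. Across single cells Nppa and Nppb went together, with a Spearman correlation between 0.392 and 0.446 in ventricular and between 0.296 and 0.397 in atrial cells of the 4 libraries, a description over cells that share a library and a depth.

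**Figure D2:**
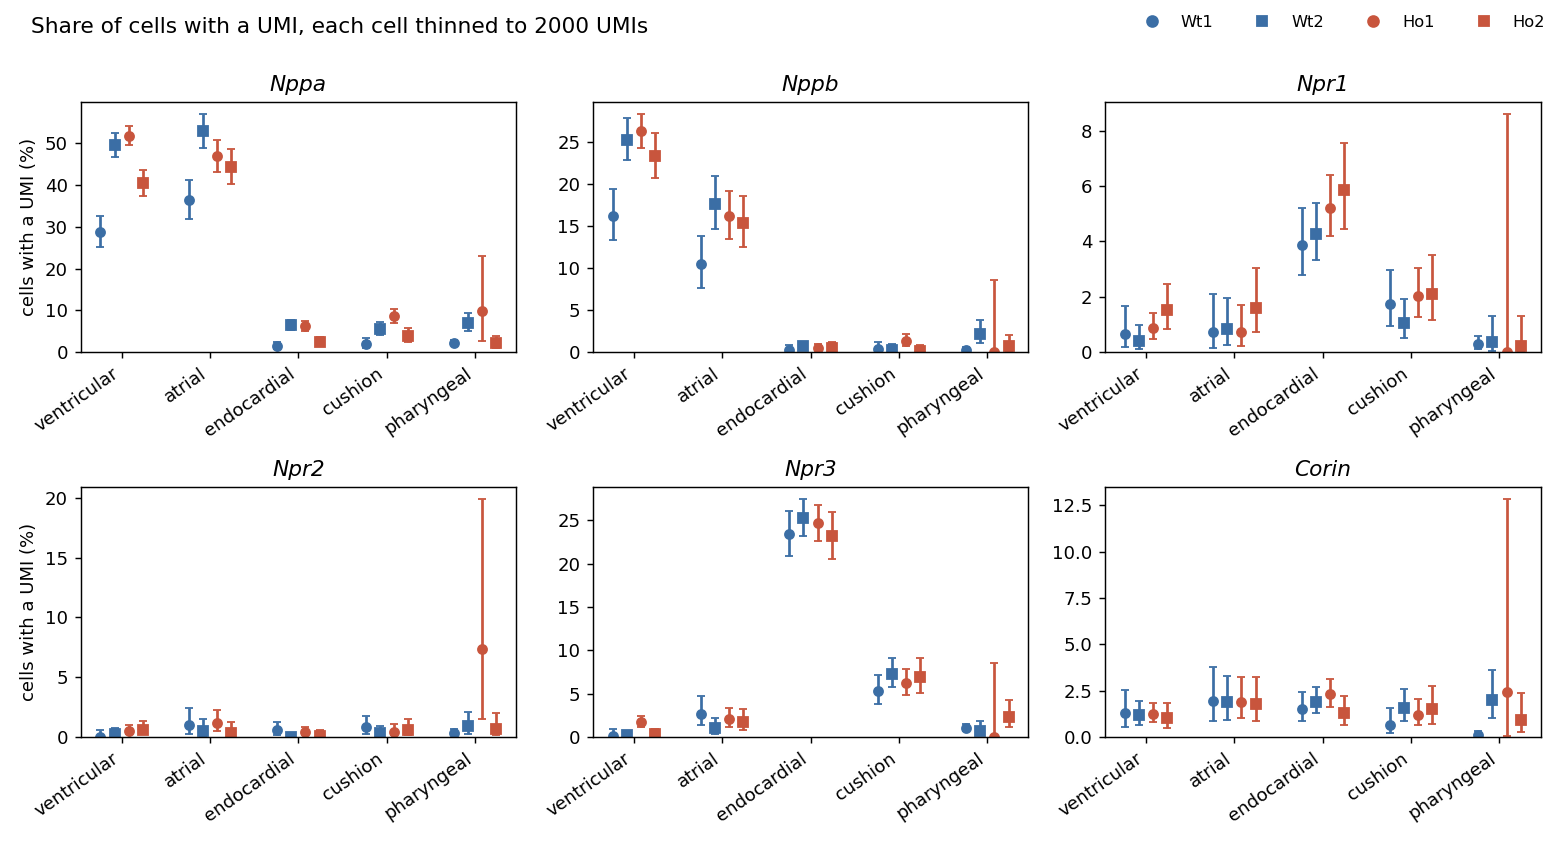
Share of cells (percent) with a UMI of a gene in each gate and library after every cell was thinned to 2000 UMIs, with exact binomial 95% intervals that cover counting error only. Nppa was found in 28.8% to 51.8% of ventricular cells, and Npr3 in 23.2% to 25.3% of endocardial cells.

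Ventricular cells on the trabecular side carried more of both peptides in every library. Ventricular cells were split by a UMI of Bmp10, a trabecular growth factor, without Hey2, or of Hey2, a compact wall repressor of the Notch pathway, without Bmp10. The Bmp10 side held 17, 45, 86 and 34 cells, and the Hey2 side 14, 46, 73 and 42. Nppa reached 4150, 12699, 11021 and 11970 CPM on the Bmp10 side, against 424, 2064, 1409 and 3198 CPM on the Hey2 side. The sides did not overlap, and within a library the ratio was 9.78, 6.15, 7.82 and 3.74. In edgeR's quasi-likelihood test 10.6% of 7603 genes were called, and Nppa was higher on the Bmp10 side by 2.60 on the log2 scale (SE 0.09, adjusted p = 6.5e-33, n = 4 libraries).

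Nppb stood at 332, 799, 992 and 740 CPM on the Bmp10 side and at 197, 159, 164 and 407 CPM on the Hey2 side. The ratio within a library was 1.69, 5.02, 6.04 and 1.82, with a log2 difference of 1.83 (SE 0.13, adjusted p = 7e-17, edgeR's quasi-likelihood test), although Wt1 on the Bmp10 side lay below Ho2 on the Hey2 side. The other 4 genes had too few UMIs in these cells to be tested. All 7 trabecular genes listed rose with the peptides, Bmp10 by the split itself, and among them Slit2, a guidance ligand, by 2.56, Cited1, a transcription cofactor, by 1.29 and Ankrd1, a stretch-responsive sarcomere protein, by 0.91 on the log2 scale. The list's median difference was 1.29, beside -3.4e-05 over all genes tested, of which 10.6% were called in either direction. Of the atrial markers 3 of 4 tested were also higher on the Bmp10 side, Stard10 by 0.90, Myl1 by 0.73 and Tbx5 by 0.66 on the log2 scale, as were 5 of 7 markers of all cardiomyocytes, among them Ttn by 0.58 and Actc1 by 0.39, beside the same 10.6%. Their part in the difference of the peptides was not tested. Of 3 compact genes tested all fell, beside the same 10.6%, Hey2 by the split itself, Mycn with a log2 difference of -0.93 and Tbx20 with -0.47. Across single ventricular cells the correlation of Nppa with Bmp10 was 0.183, 0.167, 0.193 and 0.233 (Spearman), weak in sparse counts, and that with Hey2 lay between -0.063 and 0.041.

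**Figure D3:**
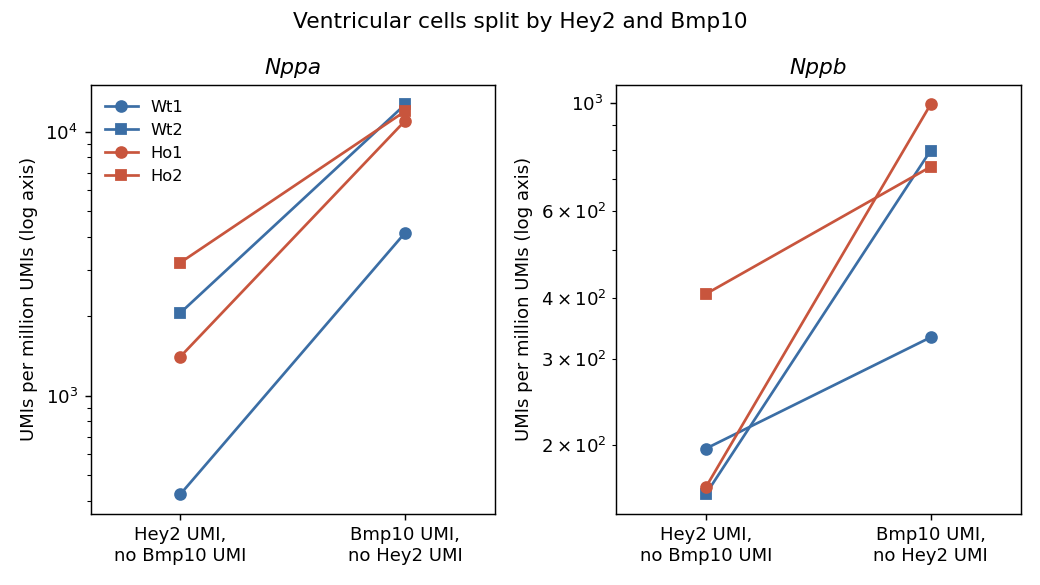
Nppa and Nppb (CPM, logarithmic axis) in ventricular cells with a UMI of Bmp10 and no Hey2 and in those with Hey2 and no Bmp10, 1 line per library. Every line runs higher on the Bmp10 side, and for Nppa the lowest Bmp10 value, 4150 CPM, lies above the highest Hey2 value, 3198 CPM.

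Low counts of Nppa and of contractile transcripts were both found in cells outside muscle. Against ventricular cells, Nppa was lower in endocardial cells by 7.15 and Nppb by 7.20 on the log2 scale (SE 0.26 and 0.16), in a contrast where 74.6% of genes were called and all 6 genes were among them. In muscle cells there were 3.48 UMIs of Nppa for each 100 of Myl7, Actc1 and Tnni1 together in Wt1 and 7.80 in Wt2, and 6.47 and 4.80 in the Ho libraries. In endocardial cells the ratio was 2.22, 6.60, 7.68 and 5.29, below the muscle value of the library in Wt and above it in Ho, while the contractile genes themselves stood at 320 to 520 CPM, against 37391 to 39283 in muscle. Nppb gave 0.309, 0.623, 0.641 and 0.539 in endocardial cells beside 0.314, 0.699, 0.632 and 0.522 in muscle. In cushion cells the ratio for Nppa was 1.01, 3.17, 4.21 and 1.67, lower in each library than in muscle, with contractile genes at 744 to 1015 CPM. In epicardial cells, gated by Upk3b, it was 0.191, 0.806, 0.957 and 0.417, with contractile genes at 2467 to 3965 CPM. Epithelial cells, by contrast, gave 4.58 in Wt1, 10.6 in Wt2 and 9.17 in Ho2, above muscle in each of these libraries. Pharyngeal cells gave 3.86, 6.21, 2.55 and 3.65, above muscle in Wt1 and below it in the others. Of 2000 UMIs, a single endocardial cell held at most 1, 3, 14 and 5 of Nppa. Whether the low counts outside muscle came from free RNA of muscle cells was not tested.

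**Figure D4:**
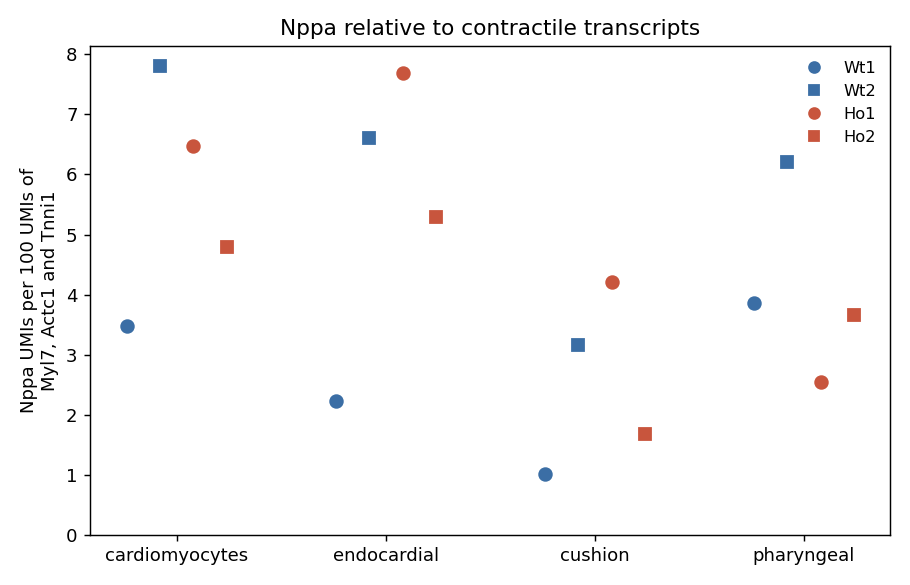
UMIs of Nppa for each 100 UMIs of Myl7, Actc1 and Tnni1 in muscle, endocardial, cushion and pharyngeal cells, 1 point per library. Nppa in endocardial cells runs from 2.22 to 7.68, beside 3.48 to 7.80 in muscle.

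Against cushion cells 71.7% of genes differed from ventricular cells and 4 of the 6 genes were called. Against pharyngeal cells the share was 68.6% and 5 of 6 were called. Atrial cells differed in 72.6% of genes from endocardial cells with 5 of the 6 called, in 69.4% from cushion cells with 4 called, and in 66.4% from pharyngeal cells with 4 called. Nppa was higher in atrial than in endocardial cells by 6.87 and Nppb by 6.18 on the log2 scale. Over the 20 sums of gate and library, the genes of at least 10 CPM whose log2 levels were most like those of Nppa were Smpx (Pearson r = 0.993), Csrp3, Nppb (r = 0.991), Mybpc3 and Asb2 (r = 0.990), of 9549 genes compared. Smpx, Csrp3 and Mybpc3 encode proteins of the muscle fibre. For Nppb they were Acta1 (r = 0.992), Srpk3, Mybpc3, Smpx and Synpo2l, with Nppa at rank 9. These 20 points share 4 libraries and 5 gates, and the values are a description.

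Corin, the protease that activates the atrial precursor, was not confined to the cells that make it. The gene (ENSMUSG00000005220) spans chr5:72300025-72504473 on the minus strand of GRCm38. It stood at 9.94, 12.1, 11.7 and 9.90 CPM in endocardial cells, above 7.14, 4.91, 6.11 and 4.98 CPM in ventricular cells without overlap. Atrial cells lay between, at 7.36, 8.39, 9.54 and 9.59 CPM. Corin was lower in ventricular than in endocardial cells, with a log2 difference of -0.75 (SE 0.25, adjusted p = 0.011, edgeR's quasi-likelihood test, n = 4 libraries), a call that was lost under DESeq2 (-0.64), in thinned cells (-0.41) and without Ho2 (-0.73, adjusted p = 0.066, edgeR). Differences of ventricular from atrial cells (-0.58, SE 0.28, adjusted p = 0.13) and of atrial from endocardial cells (-0.17, SE 0.26, adjusted p = 0.55) did not pass, though the former was called without Wt1 (-0.71, adjusted p = 0.011, edgeR). Endocardial cells gave 31.4% of all Corin UMIs with 21.1% of all UMIs, and ventricular cells 16.1%. Only 0.676% to 2.30% of cells of these gates and of the cushion had a UMI at 2000 UMIs per cell.

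Higher still were muscle cells outside both chamber gates. Cells with Tnnt2 but neither Myl2 nor Stard10, between 466 and 737 per library, held Corin at 15.7, 13.7, 17.1 and 18.3 CPM, above every value of the ventricular, atrial and endocardial gates. They gave 15.2% of Corin UMIs with 6.86% of all UMIs. The same cells had less Nppa, 537, 183, 292 and 247 CPM, and less Nppb, 47.6, 26.0, 29.9 and 32.5 CPM, than either chamber gate in every library. No test was set for them. In pharyngeal cells Corin varied from 1.24 CPM in Wt1 to 17.6 CPM in the 43 cells of Ho1. Its most similar genes over the 20 sums were Myo1c (r = 0.831), Mtus1, Rnasek, Dusp3 and Tmem176a.

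Npr1, the cyclase receptor for both peptides, was highest in the endocardium. The gene (ENSMUSG00000027931) spans chr3:90450591-90465866 on the minus strand. Endocardial cells held 24.7 and 25.0 CPM in Wt and 23.2 and 29.3 CPM in Ho, against 8.69, 5.98, 9.11 and 9.10 CPM in cushion cells. Atrial cells held 4.91, 5.91, 5.51 and 6.54 CPM and ventricular cells 3.74, 4.26, 5.92 and 4.84 CPM. Endocardial values did not overlap with any other gate, while atrial and ventricular values did, with a log2 difference of -0.18 between them (SE 0.17, adjusted p = 0.48). Endocardial cells gave 57.3% of all Npr1 UMIs. Between endocardial and cushion cells 40.6% of genes were called with 4 of the 6 among them, and Npr1 was higher in endocardial cells by 1.74 on the log2 scale (SE 0.14). It was lower in ventricular than in endocardial cells, with a log2 difference of -2.19 (SE 0.14). Pharyngeal cells held at most 2.82 CPM, with 0 UMIs in Ho1, where 3 UMIs would be 4.81 CPM.

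Npr3, the clearance receptor, was likewise a gene of the endocardium. The gene (ENSMUSG00000022206) spans chr15:11839896-11907287 on the minus strand. Endocardial cells held 156 and 163 CPM in Wt and 163 and 157 CPM in Ho, within a narrow range. Cushion cells held 28.0, 41.0, 35.8 and 50.5 CPM, atrial cells 5.77, 5.91, 6.85 and 7.23, and ventricular cells 1.43, 1.72, 5.13 and 2.49. Endocardial, cushion and atrial values did not overlap, and every atrial value lay above every ventricular one. Endocardial cells gave 76.8% of all Npr3 UMIs and cushion cells 11.0%. Npr3 was higher in endocardial than in cushion cells by 2.16 on the log2 scale (SE 0.16), or 1.45 with doubled marker limits, and lower in ventricular than in endocardial cells, with a difference of -5.55 (SE 0.21), which was -6.18 without Ho1, -4.89 with doublets kept and -4.88 in thinned cells. Epicardial cells held 30.0, 33.8, 24.6 and 29.9 CPM, close to the cushion, from 69 to 121 cells per library.

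A UMI of Npr3 was found in 23.4% of endocardial cells of Wt1 (exact 95% interval 20.9 to 26.1), 25.3% of Wt2 (23.2 to 27.5), 24.7% of Ho1 (22.6 to 26.8) and 23.2% of Ho2 (20.5 to 26.0), at 2000 UMIs per cell. In cushion cells the share was 5.27%, 7.31%, 6.26% and 6.94%, and in ventricular cells between 0.164% and 1.73%. Without thinning the mean share of endocardial cells with a UMI of Npr3 was 70.6% in Wt and 73.0% in Ho. At 2000 UMIs per cell the mean was only 0.286 to 0.322 UMIs of Npr3 per endocardial cell. The richest 10% of these cells held 52.6% to 57.1% of the Npr3 UMIs, with at most 5 in a cell. Cells with a UMI of Npr1 were fewer, 3.86% (2.78 to 5.20), 4.28% (3.33 to 5.40), 5.21% (4.19 to 6.40) and 5.84% (4.43 to 7.54) of endocardial cells, against 0.418% to 1.51% of ventricular cells. Over the 20 sums the profiles most like that of Npr3 were those of Slc16a13 (r = 0.982), Mmrn2, Plxnd1, Rab8b and Gm30938, and most like Npr1 those of Trim25 (r = 0.967), Stx4a, Pdzd2, Akap13 and Ets2. Mmrn2 is an endothelial matrix protein and Plxnd1 the endothelial semaphorin receptor. Npr1 and Npr3 correlated with each other at 0.788.

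Because Cdh5 also marks vascular endothelium, endocardial cells were split by a UMI of Nfatc1, an endocardial transcription factor. With Nfatc1 found, 114, 159, 192 and 105 cells held Npr3 at 144, 143, 145 and 128 CPM, and without it 949, 1407, 1458 and 836 cells held 157, 165, 166 and 161 CPM. The sides did not overlap, and the difference was small, -0.22 on the log2 scale (SE 0.05, adjusted p = 0.0046, edgeR's quasi-likelihood test, n = 4 libraries), where 3.45% of 12332 genes were called. Of the 6 genes 2 were called, and the other, Nppa, gave 0.52 (SE 0.14, adjusted p = 0.026, edgeR). That call was lost under DESeq2 (0.24), in thinned cells (0.21) and without Wt1 (0.51), Wt2 (0.55) or Ho1 (0.11), and the sign turned with halved marker limits (-0.0140). By library, Nppa stood at 9.35, 36.8, 66.96 and 9.94 CPM with Nfatc1 found, from 14, 96, 221 and 18 UMIs. Without Nfatc1 the values were 6.66, 26.7, 36.2 and 19.5 CPM. Nppa was thus higher with Nfatc1 found in every library but Ho2, where it was lower. Muscle markers also had higher values with Nfatc1 found, 6 of 6 tested of all cardiomyocytes (median 0.22), of which Tnnt2 was called (0.34, adjusted p = 0.019, edgeR), and 4 of 4 ventricular ones (median 0.28), of which Hey2 was called (0.87). The 7 listed markers of all cardiomyocytes summed to 504, 521, 808 and 372 CPM with Nfatc1 found and to 378, 508, 603 and 424 CPM without. In Ho2 this sum was thus lower with Nfatc1 found. The part of muscle markers in the difference of Nppa was not tested. Markers of vascular endothelium in the whole gate, 5 of 5 listed genes found, summed to 45.2, 27.1, 16.5 and 42.2 CPM beside 2028, 2123, 1873 and 2104 CPM for the 8 endocardial markers. Cldn5 was the most abundant of the former and Egfl7 of the latter. With Nfatc1 found the vascular list summed to 20.7, 23.4, 17.3 and 30.9 CPM, and without it to 47.4, 27.4, 16.4 and 43.4 CPM, lower with Nfatc1 in every library but Ho1. Of its 3 genes tested Cldn5, a tight junction protein, was lower with Nfatc1 found (log2 difference -0.71, adjusted p = 0.0042, edgeR), beside 3.45% of all genes called. Markers of cushion cells, in which Npr3 was lower, moved with the split: 5 of 8 were higher with Nfatc1 found, among them Vcan by 0.89 and Tbx20 by 0.69 on the log2 scale, and 0 lower, beside 3.45% of all genes called. The 8 summed to 1051, 900.3, 974 and 1162 CPM with Nfatc1 found and to 744, 674, 790 and 790 CPM without, with Hapln1 the most abundant and 0 of them without a UMI. Of the 8 endocardial markers 2 were higher with Nfatc1 found, Nfatc1 by the split itself and Tek by 0.20 on the log2 scale. Another 2 were lower, Emcn (-0.42) and Plvap (-0.16), beside the same 3.45%. Of 4 blood genes tested 3 were lower with Nfatc1 found. The 5 listed summed to 136, 66.0, 49.99 and 121 CPM with Nfatc1 found, against 86.0, 72.3, 285 and 115 CPM without. This sum was lower with Nfatc1 found in Wt2 and Ho1, by far the most in Ho1, and higher in Wt1 and Ho2. The part of these cell types in the level of Npr3 was not tested.

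Npr2, the receptor for C-type natriuretic peptide, was below 3 CPM in every library of 4 gates. The gene (ENSMUSG00000028469) spans chr4:43631935-43651244 on the plus strand. Its level was 1.12, 0.79, 0.76 and 1.19 CPM in endocardial cells, 1.10, 1.46, 2.30 and 2.20 in ventricular cells, 2.89, 2.00, 1.91 and 1.83 in atrial cells and 2.42, 2.45, 2.81 and 1.80 in cushion cells. Pharyngeal cells had the highest mean, with 2.21, 2.81, 9.61 and 3.81 CPM, where the value of Ho1 rests on 6 UMIs. Endocardial cells, highest for Npr1 and Npr3, had the lowest mean for Npr2 of the 5 gates. It was higher in ventricular than in endocardial cells by 1.19 on the log2 scale (SE 0.26) and lower in endocardial than in cushion cells, with a difference of -1.27 (SE 0.27, adjusted p = 0.00094, edgeR's quasi-likelihood test). Against pharyngeal cells 60.1% of genes differed from endocardial cells, 4 of the 6 genes among them, with Npr2 lower in endocardial cells (log2 difference -1.56). Cushion and pharyngeal cells differed in 45.2% of genes and in 2 of the 6, Npr1 higher by 2.26 and Npr3 by 2.58 in the cushion, or by 1.49 and 1.82 with halved marker limits and, for Npr3, 3.65 with doubled ones. All told 40 of 60 comparisons of a gene between a pair of gates passed, beside 28.2% to 74.6% of all genes in the same pairs, so that the count is within the range of the background. Nppc, which encodes the ligand of Npr2, was at no more than 1.62 CPM as a mean in any gate.

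Other genes of the pathway came from fixed lists and were compared between the same gates. Of the list of peptide processing and clearance, 7 of 8 genes were tested between ventricular and endocardial cells, and 4 were higher and 3 lower in ventricular cells, where 74.6% of all genes were called. Furin, a precursor convertase, was lower in ventricular cells, at a mean of 15.5 CPM against 37.4 in endocardial and 55.6 in cushion cells. Pcsk5, a related convertase, stood at 2.87 CPM in ventricular against 20.3 CPM in endocardial cells, and Ide, an insulin and peptide degrading enzyme, at 28.8 CPM in ventricular against 23.5 in endocardial cells. Pcsk6, a convertase that acts on Corin, was chosen after its values were seen: ventricular cells held 17.5, 12.5, 15.4 and 18.1 CPM, and atrial cells a mean of 0.36 CPM, a log2 difference of 5.49 (SE 0.21). Ostn, a ligand of Npr3, had a mean of 0 CPM in the 5 gates.

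In cGMP signalling, 10 of 19 genes were higher and 7 lower in ventricular than in endocardial cells, beside 74.6% of all genes called. Between ventricular and atrial cells 3 were higher and 7 lower, beside 28.2% of all genes. Pln, the inhibitor of the sarcoplasmic calcium pump, was at a mean of 415 CPM in ventricular and 23.9 CPM in atrial cells, and also rose on the Bmp10 side by 0.45 on the log2 scale. Gucy1a1, a subunit of the soluble guanylyl cyclase, was higher in atrial cells, at 76.0 CPM against 30.7 in ventricular and 2.29 in endocardial cells. Vasp, an actin regulator and substrate of the cGMP-dependent kinase, stood at 78.9 CPM in endocardial cells. Of listed activators of the peptide genes 9 of 16 tested were higher and 3 lower in ventricular than in endocardial cells, a share close to the 74.6% of all genes, and between the chambers 3 were higher and 2 lower in ventricular cells, beside 28.2% of all genes. Mef2c was at 176 CPM in ventricular and 192 in atrial cells, and Gata6 at 68.4 and 90.7. Of listed repressors 9 of 14 were higher and 5 lower in ventricular than in endocardial cells, beside the same 74.6%, and Hopx, the most abundant, stood at 556 CPM against 12.1. Agtrap, a neighbour of the peptide genes, was at 25.9 CPM in ventricular and 13.8 in atrial cells, and 3 of 5 tested neighbours were higher in ventricular than in atrial cells, beside 28.2% of all genes. Against endocardial cells 2 neighbours were higher and 2 lower, beside 74.6%.

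Ho was then compared with Wt within each gate, which asks whether the Cyp51 allele changed the system. None of the 6 genes was called in any of the 5 gates, in 30 comparisons with edgeR's quasi-likelihood test. The background was as low: 0% of 13325 genes in ventricular cells, 0.0647% in atrial cells (8 of 12369), 0% in endocardial cells, 0.0233% in cushion cells (3 of 12864) and 0% in pharyngeal cells. At an unadjusted p under 0.05 there were 1207 genes in ventricular, 687 in endocardial and 174 in pharyngeal cells, and DESeq2 called 21, 23 and 0 genes in them. Log2 differences of Ho from Wt ran from -0.30 for Npr2 in atrial cells to 1.26 for Npr3 in ventricular cells, and the smallest adjusted p was 0.386. With 2 libraries on each side, p-values measure the spread between these libraries, and a miss does not show that the genotypes were alike.

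In muscle both Ho values of the peptides lay between those of Wt. Ventricular Nppa gave -0.04 on the log2 scale (SE 0.33, adjusted p = 0.98, edgeR's quasi-likelihood test). Without Wt1 the difference was -0.55 and without Wt2 0.79. Ventricular Nppb differed by 0.14 (SE 0.28), and was called without Wt2, at 0.89 with an adjusted p of 0.0050 (edgeR). In atrial cells Nppa differed by -0.04 (SE 0.19) and Nppb by 0.02 (SE 0.14). In cushion cells Nppb was low, at 1.62 and 2.79 CPM in Wt and 4.43 and 3.43 CPM in Ho, without overlap. These values rest on 16, 41, 71 and 38 UMIs. The log2 difference was 0.83 (SE 0.31, unadjusted p = 0.025, adjusted p = 0.996 in edgeR's quasi-likelihood test). Of 12864 genes tested in cushion cells 611 had an unadjusted p under 0.05 in the same test. In these cells Myl7, Actc1 and Tnni1 together stood at 744 and 934 CPM in Wt and 973 and 1015 CPM in Ho, also without overlap. Of 4 ventricular markers tested 3 had a higher value in Ho (median log2 difference 0.38, beside 0.0024 over all genes). Of 7 markers of all cardiomyocytes 5 had a higher value in Ho (median 0.10), and in both lists 0 were called. The part of muscle transcripts in the difference of Nppb was not tested. The share of ventricular cells with a UMI of Nppa was higher by 6.98 percentage points in Ho, with the libraries overlapping (exact two-sided permutation test, p = 0.667, where 2 against 2 libraries cannot go below 0.333). Trabecular list genes summed to 1416, 1743, 1512 and 1339 CPM in ventricular cells, so that Wt2 was highest for them as for Nppa but Wt1 was not lowest.

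**Figure D5:**
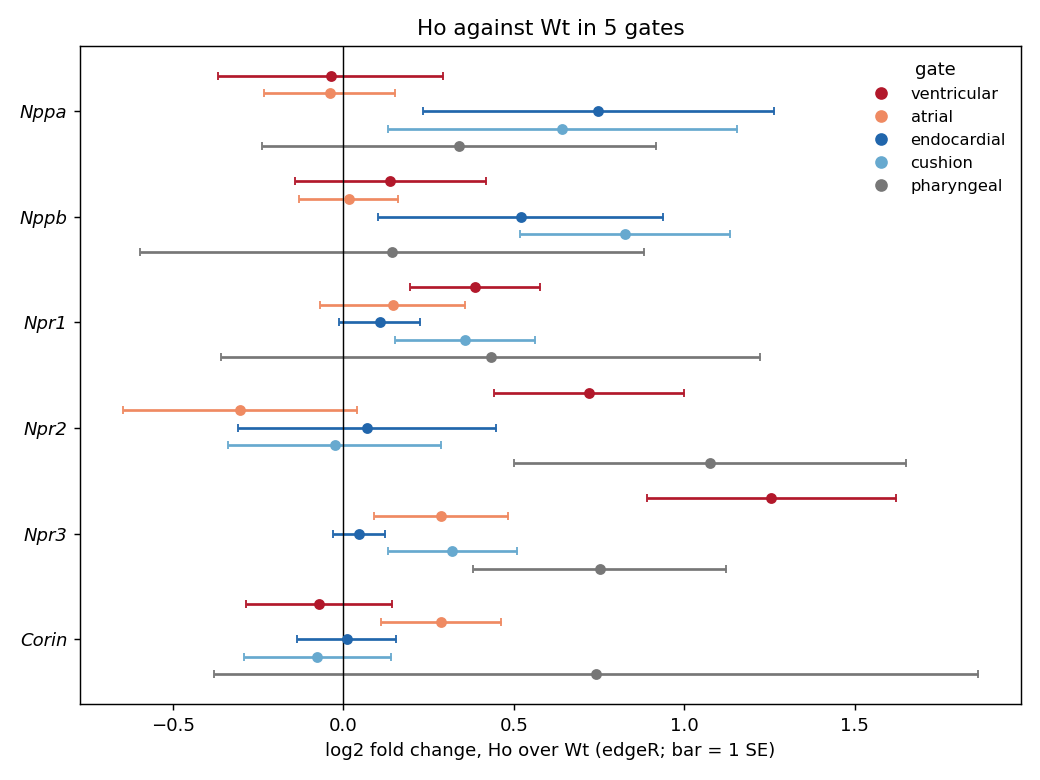
Log2 difference of Ho from Wt for each of the 6 genes in 5 gates, with bars of 1 SE from edgeR's quasi-likelihood fit on 2 libraries per genotype. No gene was called. Npr3 in ventricular cells lies farthest from 0, at 1.26.

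In the endocardium the receptors differed by little. Npr3 gave 0.05 on the log2 scale (SE 0.08), Npr1 0.11 (SE 0.12) and Corin 0.01 (SE 0.14). The share of endocardial cells with a UMI of Npr1 was higher in Ho without overlap at 2000 UMIs per cell (exact two-sided permutation test, p = 0.333, the smallest this design allows). The libraries overlapped at 5000 UMIs per cell, with means of 11.5% in Wt and 11.9% in Ho (exact permutation p = 1), and without thinning, with 29.2% and 32.5% (exact permutation p = 0.667). Nppa in endocardial cells gave 0.75 (SE 0.52, adjusted p = 0.93, edgeR), and 2.08 without Wt2, where it was called (adjusted p = 0.040, edgeR). Muscle transcripts in these cells also had higher values in Ho, 7 of 7 markers of all cardiomyocytes (median log2 difference 0.37) and 4 of 4 ventricular markers tested (0.47), beside a median of 0.0034 over all genes and with 0 called. The former summed to 392 and 513 CPM in Wt and 629 and 421 CPM in Ho, with Tnni1 the most abundant and the genotypes overlapping. Their part in the difference of Nppa was not tested. None of the genes passed in tests of whether the Ho effect itself differed between gates, where 0% of 14889 genes were called between atrial and ventricular cells, 0% between endocardial and ventricular cells and 0% between cushion and endocardial cells, with 342, 372 and 224 genes at an unadjusted p under 0.05.

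Npr3 in ventricular cells had the largest difference, 1.26 on the log2 scale (SE 0.37, unadjusted p = 0.0062, adjusted p = 0.386 in edgeR's quasi-likelihood test over all genes). The lower Ho value exceeded the higher Wt value, and Ho1, at 5.13 CPM, was the highest. Without Ho2 the gene was called, at 1.66 (adjusted p = 0.013, edgeR), and without Ho1 the difference was 0.55. The other receptors also had higher values in both Ho libraries, Npr2 at 1.10 and 1.46 CPM in Wt and 2.30 and 2.20 in Ho (log2 difference 0.72, SE 0.28, unadjusted p = 0.027, adjusted p = 0.509, edgeR's quasi-likelihood test) and Npr1 at 3.74 and 4.26 against 5.92 and 4.84 CPM (0.39, SE 0.19, unadjusted p = 0.071, adjusted p = 0.582, edgeR's quasi-likelihood test). Neither was called, and the values of Npr2 rest on 10, 34, 82 and 45 UMIs. The share of ventricular cells with a UMI of either was also higher in Ho at 2000 and at 5000 UMIs per cell. At 2000 UMIs the means were 0.125% in Wt and 0.573% in Ho for Npr2 and 0.536% and 1.19% for Npr1. The libraries did not overlap at either depth (exact two-sided permutation tests, p = 0.333 each, the smallest this design allows). The Npr2 shares at 2000 UMIs rest on 0, 3, 10 and 6 UMIs. Without thinning the libraries also stayed apart, but so did those of Nppb and Corin. Median depth was lowest in Wt1 there, at 12298 UMIs over all cells of the gate. How many of all genes separate in this way was not counted. Other transcripts moved in Ho1: Cdh5 in ventricular cells stood at 2.78 CPM in Ho1 and at 0.489 CPM in Ho2, beside 0.769 and 0.947 CPM in Wt, although cells above the Cdh5 limit had been left out. All 8 endocardial markers were found and summed to 89.0, 82.7, 94.8 and 88.9 CPM, with Cgnl1 the most abundant at 44.6 to 55.1 CPM, and 7 of 8 had a higher value in Ho (median log2 difference 0.21, beside 0.0047 over all genes). Of 5 epicardial markers 4 had a higher value in Ho (median 0.61), and they summed to 11.0 and 12.3 CPM in Wt and 14.9 and 15.8 CPM in Ho, without overlap, with Tbx18 the most abundant. In both lists 0 were called. The 5 blood genes listed summed to 252 CPM in Ho1 and to 3.52, 11.8 and 9.53 CPM in Wt1, Wt2 and Ho2, with Hba-x at 120 CPM in Ho1. Their part in the difference of Npr3 was not tested.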

How the data were processed

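The authors sequenced 10x Genomics 3′ libraries of 2 Wt and 2 Ho samples, counted UMIs with Cell Ranger 6.1.1 against mm10, and deposited the counts per gene and barcode without normalization. Following the study's limits, barcodes over 20% mitochondrial counts, or outside 500 to 50000 UMIs or 500 to 6000 genes, were dropped, and the cells with the highest Scrublet scores (scanpy 1.11.5), 0.8% per 1000 cells, were removed as doublets. A marker was on above Otsu's limit over the pooled cells, in counts per 10000 UMIs 5.62 for Tnnt2, 6.15 for Myl2, 1.08 for Stard10, 1.02 for Cdh5, 1.73 for Hapln1 and 1.68 for Crabp1. Atrial cells lacked Myl2, endocardial, cushion and pharyngeal cells Tnnt2, all but endocardial cells Cdh5, all but pharyngeal cells Crabp1, and pharyngeal cells Hapln1. UMIs were summed per gate and library and compared with edgeR 4.0.16 in R 4.3.3 (quasi-likelihood test after TMM normalization and filterByExpr), and p-values were adjusted by Benjamini-Hochberg with a threshold of 0.05. Gate comparisons and splits had the library as a term. For the splits by Bmp10 and Hey2 and by Nfatc1 each cell was first thinned to 2000 UMIs, and its unthinned counts were then summed. In the alternative of thinned cells the thinned counts themselves were summed. CPM are counts scaled to 1000000 UMIs of the summed cells. Totals per library ranged from 107377100 to 127018819 UMIs, and a count of 0 was given a limit of 3 UMIs. Genes named were the 6 genes, the 3 most abundant genes of each list, list genes called between genotypes, and the 5 genes most like each of the 6, with Pearson's r of log2(CPM + 1). Others were chosen after their values were seen. The 6 genes, the gates and the lists were chosen with earlier results of these data known. Promoters came from RefSeq and positions from GENCODE M21, both on GRCm38, and 99.8% of the gene identifiers were matched. The test was checked on simulated data. Alternatives were RLE normalization, DESeq2 1.42.0, no filter or at least 10 UMIs in every sum, marker limits halved or doubled, at most 10% mitochondrial counts, doublets kept, no upper limits, cells thinned to 2000 UMIs, a replicate block and each library left out. The crossed replicate block was added after the data were seen. A p-value here describes samples that the labels number as replicates, and whether these came from separate litters is not stated.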

Additional observations from a re-analysis of the deposited data

How the results depend on the processing

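Of 369 values of the 6 genes over 37 results and the alternatives that kept all libraries, 349 held their direction and their side of the threshold, 7 lost a call, 3 gained one and 10 changed sign, and of 148 values with a library left out these numbers were 130, 5, 4 and 9. Calls between genotypes were few and moved with the processing; the cause was not tested. In ventricular cells, where 0 genes were called, DESeq2 gave 21, no filter 203, halved marker limits 8, thinned cells 48 and leaving out a library 62 to 105. In atrial cells, where 8 were called, no filter gave 61, at least 10 UMIs in every sum 4, doubled limits 15, thinned cells 0 and leaving out a library 19 to 33. In endocardial cells, where 0 were called, DESeq2 gave 23, no filter 207, thinned cells 2 and leaving out a library 1 to 218. In cushion cells, where 3 were called, DESeq2 gave 11, no filter 154, halved and doubled limits 0 each, doublets kept 1, thinned cells 1 and leaving out a library 3 to 61. In pharyngeal cells, where 0 were called, no filter gave 123 and leaving out a library 0 to 1. The split by Bmp10 and Hey2 called 806 genes, 218 under DESeq2, 92 in thinned cells and 397 to 793 without a library, and the split by Nfatc1 called 426, 192 under DESeq2, 698 with no filter, 71 in thinned cells and 278 to 339 without a library. Of 60 comparisons of the 6 genes between gates 40 passed, 36 to 41 without a library and 12 where at least 10 UMIs were asked in every sum, which left most of the 6 untested. RLE normalization moved none of these counts.

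Without the filter on low counts Npr3 in ventricular cells (1.27 on the log2 scale, adjusted p = 9.4e-05 in edgeR's quasi-likelihood test), Nppa in endocardial cells (0.75, adjusted p = 1.1e-07) and Nppa in cushion cells (0.65, adjusted p = 0.00018) passed between the genotypes. Log2 differences changed sign for ventricular Nppa in thinned cells (0.10), for atrial Nppa with doubled limits (0.13), for atrial Nppb with halved limits (-0.0556), for endocardial Corin without upper limits (-0.00651), for Corin between atrial and endocardial cells in thinned cells (0.14) and for Nppa in the split by Nfatc1 with halved limits (-0.0140). With a library left out, where the lone library is assumed to vary like the others, Ho minus Wt ran from -0.55 to 0.79 for ventricular Nppa, from -0.34 to 0.89 for ventricular Nppb, from -0.37 to 0.39 for atrial Nppa, from -0.25 to 0.37 for atrial Nppb, from 0.55 to 1.66 for ventricular Npr3, from 0.01 to 2.08 for endocardial Nppa, from -0.0396 to 0.25 for endocardial Npr1, from -0.0120 to 0.10 for endocardial Npr3 and from -0.16 to 0.14 for endocardial Corin. In thinned cells Npr3 between ventricular and atrial cells and Corin between endocardial and cushion cells lost their calls, and Npr2 could not be tested. The call of Nppa in the split by Nfatc1 was lost under DESeq2, in thinned cells and without Wt1, Wt2 or Ho1.

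The replicate numbers are shared by the genotypes, and deviations of same-numbered libraries correlated at 0.00119 in ventricular, -0.0386 in atrial, -0.0879 in endocardial, 0.109 in cushion and -0.157 in pharyngeal cells. These values do not show whether same-numbered libraries shared more than the number. With the replicate block 21 genes were called in atrial, 12 in endocardial and 74 in cushion cells, and with the crossed replicate block 14 in ventricular, 40 in atrial, 35 in endocardial and 16 in pharyngeal cells. The block gave 0.10 for ventricular and 0.00997 for atrial Nppa and the crossed block 0.10 and 0.0101, and none of the 6 genes was called under either. Depth limits values that rest on few UMIs, such as the 0, 6 and 4 UMIs of Npr1, Npr2 and Npr3 in pharyngeal cells of Ho1.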

Other observations

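Outside the 5 gates some values of the 6 genes stood out. Cells of no gate, 2227 and 1140 in the Wt and 652 and 1297 in the Ho libraries, held Nppa at 22.3, 55.8, 265 and 29.8 CPM and Nppb at 4.75, 7.93, 43.2 and 4.45 CPM, so that Ho1 was the highest library for both. Epicardial cells, 88, 107, 69 and 121 in number, held Nppa at 5.72, 19.9, 37.9 and 13.8 CPM, below the endocardial value of the same library, and Corin at 2.86, 0.50, 2.66 and 0.39 CPM. Epicardial cells gave 1.22% of all Npr3 UMIs.

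Among genes of the fixed lists C1qb, a complement gene of macrophages, was called between genotypes in atrial cells, with 12 UMIs in Wt1, 13 in Wt2 and 0 in Ho1 and Ho2. All 4 macrophage markers together stood at 6.06, 6.79, 5.30 and 3.49 CPM there, led by Cd68.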
